A study of Mus musculus with 6 samples.

Results

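*Itgb3*, which encodes the integrin β3 chain, and 9 further integrin chain genes (*Itgav*, *Itga2b*, *Itgae*, *Itgb7*, *Itga4*, *Itgb1*, *Itgal*, *Itgb2* and *Itga6*) were followed in CD4-CD8- double negative (DN) mouse thymocytes, 10 of the 41457 genes listed. They were taken by gene symbol from the deposited gene tables. *Itgb3* was selected on its lower CPM in Nc1Bio than in BirA thymocytes, so its difference between these genotypes is given as a description, with no test. The 9 others are chains that pair with β3, share such a partner, or are widely known from T cells. All 10 were present in every table and passed the filter on low counts.

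Nc1Bio mice (*Nfatc1/A-Bio.BirA*, n = 3 libraries) carried 1 extra copy of the whole murine *Nfatc1* locus on a bacterial artificial chromosome, with a biotin tag on NFATc1/A, together with the biotin ligase BirA. BirA mice (n = 3 libraries), labelled WT for genotype, carried the biotin ligase from the ROSA26 locus and normal levels of NFATc1, so the ligase is common to both groups. Mice were 4 to 6 weeks old on a C57/B6 background. DN cells were what remained after CD4+ and CD8+ cells had been removed on magnetic beads, not a sorted population. No label says that each library is another animal, so p-values measure the spread between libraries. The comparison asks what the extra *Nfatc1* copy goes with in DN cells.

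Integrins are cell surface receptors made of one α and one β chain that hold cells to matrix or to other cells. A chain reaches the surface only with a partner, so the genes are described here in pairs. The pairs are αvβ3, which binds vitronectin and other RGD proteins, and αIIbβ3, the fibrinogen receptor of platelets. αEβ7 (CD103) binds E-cadherin on epithelium, α4β7 and α4β1 bind MAdCAM-1 and VCAM-1, αLβ2 (LFA-1) binds ICAMs, and α6β1 is a laminin receptor. Talin and kindlin switch them to the binding state downstream of RAP1. In the thymus, progenitors enter, move between cortex and medulla and leave using these receptors.

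Unique gene reads per library were 11845952 to 14013497 in Nc1Bio and 13767665 to 15393763 in BirA. Values below are CPM, the unique gene reads of a gene in every 1000000 unique gene reads of its library, with library sizes scaled by TMM. *Nfatc1* itself had 572.6, 597.0 and 550.6 CPM in Nc1Bio, against 152.4, 128.4 and 96.9 CPM in BirA (log2 fold change 2.19 ± 0.164 SE, adjusted p = 0.0141, edgeR's quasi-likelihood test with Benjamini-Hochberg adjustment). It was the single gene called higher at an adjusted p under 0.05 (0.00818% of 12224 genes tested), and none was called lower (0%, with 936 genes lower at an unadjusted p under 0.05, or 7.66%). DESeq2 called 273 genes lower (2.32% of 11742) and 55 higher (0.468%), and limma-voom 0 and 1. In BirA replicate 3 the Y-linked gene *Ddx3y* had 0 reads, against 741 to 1249 in the other 5 libraries. *Xist* had only 11 reads there and 0 in those 5. By *Ddx3y* the libraries were not matched for sex, although the methods describe sex-matched mice. The DN markers *Dntt*, *Thy1* and *Lck* each lay between 1043 and 2932 CPM in every library. The least abundant of that list were *Ptcra*, at 9.46 to 34.3 CPM, and *Rag2*, at 1.88 to 4.48 CPM. The sum of *Cd4*, *Cd8a* and *Cd8b1*, the depleted coreceptors, was 21.1 to 41.6 CPM in Nc1Bio and 22.2 to 52.6 CPM in BirA.

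NFAT proteins bind DNA at sites with the core GGAAA, read as TTTCC on the other strand. The 250 bases before the RefSeq transcription start of 5 chains were in the RefSeq promoter table (GRCm38.p6): *Itgav*, *Itga2b*, *Itgb7*, *Itga4* and *Itgb1*. Among all promoters of this length in the table, 18254 of 32851 (55.6%) held the core on either strand. It was found 2 times for *Itga2b*, 1 time for *Itgb1*, and 0 times for *Itgav*, *Itgb7* and *Itga4*. The *Itga2b* window, chr11:102469884-102470133 (- strand), lies mostly inside the gene as deposited, chr11:102453297-102470122, and so do both matches. The last bases of the *Itgb7* window also overlap its deposited gene. Shown here are *Itgav*, the partner of β3, and *Itgb7*, whose levels were lower in Nc1Bio on average, and *Itgb1*, whose groups lay together. Capitals mark the core. The windows are chr2:83724147-83724396 (+ strand), chr15:102231936-102232185 (- strand) and chr8:128685404-128685653 (+ strand), each printed 5′ to 3′ along its gene.
Itgav: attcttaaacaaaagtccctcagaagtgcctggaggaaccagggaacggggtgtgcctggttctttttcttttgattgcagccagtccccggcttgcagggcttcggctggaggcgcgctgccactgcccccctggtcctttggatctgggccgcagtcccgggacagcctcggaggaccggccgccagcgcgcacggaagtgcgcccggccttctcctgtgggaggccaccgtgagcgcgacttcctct
Itgb7: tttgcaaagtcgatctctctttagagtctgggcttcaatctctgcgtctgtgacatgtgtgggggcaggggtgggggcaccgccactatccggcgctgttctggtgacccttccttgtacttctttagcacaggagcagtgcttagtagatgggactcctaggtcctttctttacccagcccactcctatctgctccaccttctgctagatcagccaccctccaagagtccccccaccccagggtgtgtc
Itgb1: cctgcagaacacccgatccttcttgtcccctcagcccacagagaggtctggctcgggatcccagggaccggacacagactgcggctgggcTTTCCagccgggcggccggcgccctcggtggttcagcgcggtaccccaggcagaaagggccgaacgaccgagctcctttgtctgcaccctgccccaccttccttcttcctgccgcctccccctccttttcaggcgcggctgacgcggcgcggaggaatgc
A match or its lack is a description of these letters only.

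*Itgb3* (ENSMUSG00000020689, GRCm38 chr11:104608000-104670476, + strand) had 35.8, 33.6 and 71.5 CPM in Nc1Bio, against 179.2, 163.9 and 147.9 CPM in BirA. Every Nc1Bio library lay under every BirA library, and Nc1Bio replicate 3 was the highest of its group. Nc1Bio libraries averaged 47.0 ± 21.3 CPM and BirA libraries 163.7 ± 15.7 CPM (SD, n = 3 each), a log2 fold change of -1.80. It was -2.24 without Nc1Bio replicate 3 and -1.61 without Nc1Bio replicate 2, the range over libraries left out. These values rest on 430, 443 and 927 unique reads in Nc1Bio and on 2483, 2560 and 2129 in BirA, 99.99% of the total reads of the gene. No other annotated gene overlaps it.

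Nearly all *Itgb3* reads came from exons. Unique intron reads, which come mostly from unspliced RNA, numbered 7, 1 and 2 in Nc1Bio and 29, 29 and 19 in BirA. Both kinds of read were fewer in Nc1Bio: summed over libraries and scaled to depth, the Nc1Bio group had 46.9 CPM from exons and the BirA group 161.7, and from introns they had 0.262 CPM (Nc1Bio) and 1.76 CPM (BirA). With 10 intron reads in all 3 Nc1Bio libraries, the size of the intron difference is known only roughly.

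**Figure D1:**
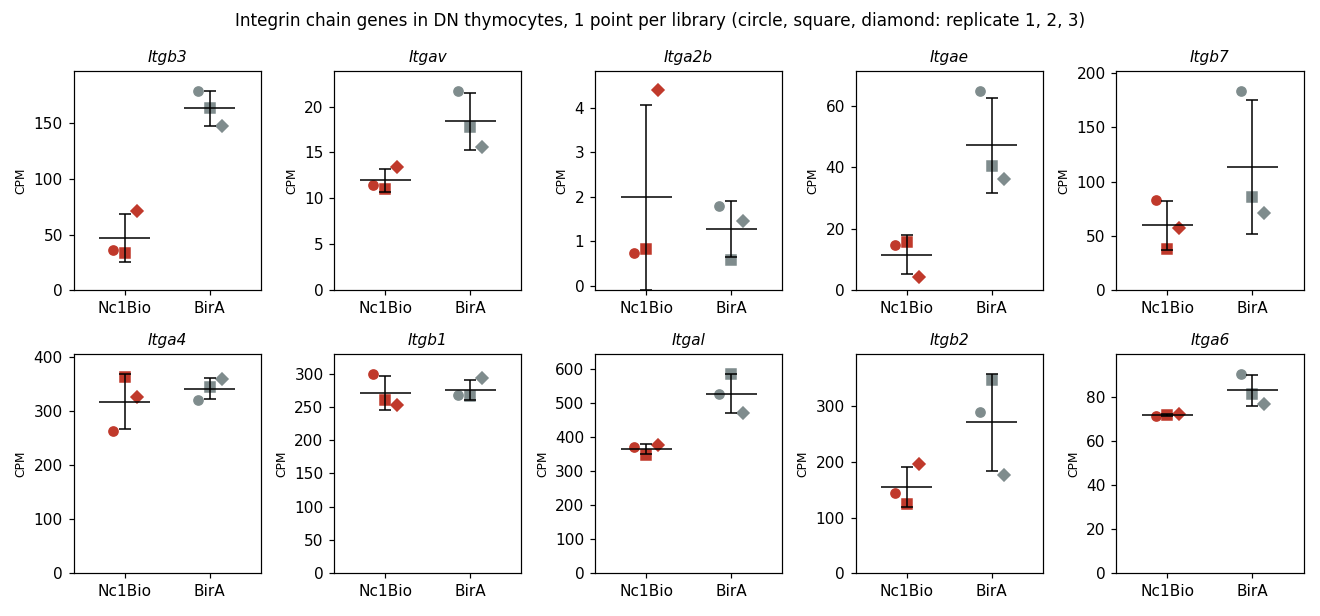
CPM of the 10 integrin chain genes in each library (circle, square and diamond for replicate 1, 2 and 3), with group means (horizontal lines) and SD (bars), Nc1Bio left and BirA right in each panel. The 3 Nc1Bio points of *Itgb3* lie between 33.6 and 71.5 CPM, under the lowest BirA point of 147.9 CPM, while the points of *Itga4* and *Itgb1* overlap between groups.

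*Itgav* (chr2:83724397-83806916, + strand) encodes αv, the partner of β3 outside platelets. It had 11.4, 11.1 and 13.4 CPM in Nc1Bio, against 21.7, 17.8 and 15.6 CPM in BirA. The groups did not overlap, which held for 9.98% of all genes tested in the lower direction and 8.45% in the higher. The log2 fold change was -0.62 ± 0.192 SE and did not pass the test (adjusted p = 0.309, range over all alternatives 0.200 to 0.646). The ratio of the chains includes *Itgb3*, so it too is a description. Per kb of exon, *Itgb3* exceeded *Itgav* by 5.75, 5.59 and 9.68 times in Nc1Bio, against 15.3, 16.9 and 18.0 times in BirA.

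*Itga2b* (chr11:102453297-102470122, - strand) encodes αIIb, the other partner of β3, best known from platelets and their precursors. It was near the detection limit, with 0.750, 0.834 and 4.40 CPM in Nc1Bio (9, 11 and 57 reads), against 1.80, 0.576 and 1.46 CPM in BirA (25, 9 and 21 reads). The groups overlapped, and 1 library, Nc1Bio replicate 3, stood above the other 5. The log2 fold change was 0.64 ± 0.810 SE (adjusted p = 0.787), and -0.68 without that library. The erythroid list was also highest there: *Hba-a1*, *Hba-a2*, *Hbb-bs* and 4 further red cell genes summed to 40770, 17670 and 97660 CPM in Nc1Bio, against 66150, 30800 and 20080 CPM in BirA. The part of red cell RNA in the *Itga2b* value was not tested.

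Markers of megakaryocytes and platelets, the cells in which αIIbβ3 is best known, were nearly absent. The 12 genes of the list together gave 4.08, 2.20 and 2.01 CPM in Nc1Bio, against 16.0, 6.98 and 1.25 CPM in BirA, less than *Itgb3* alone in every library. No library had more than 3 reads of *Gp1bb*, *Gp5*, *Gp6*, *Treml1* or *Tubb1*. The 2 that could be tested, *Pf4* and *Selp*, had log2 fold changes of -1.91 ± 1.11 SE (adjusted p = 0.535) and -2.16 ± 1.19 SE (adjusted p = 0.509). In BirA replicate 3 the list was at its lowest of all libraries, while *Itgb3* was at 147.9 CPM. The part of these cells in the *Itgb3* value was not tested.

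*Itgae* (chr11:73090583-73147446, + strand) encodes αE, which pairs with β7 alone. It had 14.6, 15.9 and 4.24 CPM in Nc1Bio, against 65.0, 40.5 and 36.2 CPM in BirA, with no overlap (9.98% of all genes lower). Nc1Bio libraries averaged 11.6 ± 6.37 CPM and BirA libraries 47.2 ± 15.6 CPM (SD, n = 3 each), and the log2 fold change of -2.03 ± 0.458 SE was the furthest below 0 among the 21 integrin chains that passed the filter. Nc1Bio replicate 3 was the lowest library for *Itgae* and the highest Nc1Bio library for *Itgb3*, while within BirA the order of libraries was the same for both genes. The call depended on the tool. The adjusted p was 0.194 in edgeR, 0.010 in edgeR with no filter on low counts and 4.95e-05 in DESeq2, and it reached 0.434 without BirA replicate 1. *Haspin* lies within *Itgae* on the opposite strand, and 99.8% of the *Itgae* reads were unique.

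*Itgb7* (chr15:102215995-102231944, - strand) encodes β7, the partner of αE and α4. It had 83.4, 38.3 and 57.1 CPM in Nc1Bio, against 183.6, 85.5 and 70.7 CPM in BirA. The groups overlapped, and BirA replicate 1 stood above the rest. The log2 fold change was -0.93 ± 0.396 SE (adjusted p = 0.412), and -0.39 without BirA replicate 1. Per kb of exon, *Itgae* was 0.103, 0.251 and 0.0464 times *Itgb7* in Nc1Bio, against 0.215, 0.290 and 0.302 times in BirA. These ratios overlapped, and the β chain was the more abundant transcript in all 6 libraries.

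*Itga4* and *Itgb1*, which encode the chains of α4β1, differed little between genotypes. *Itga4* (chr2:79255426-79333123, + strand) had 262.8, 363.4 and 326.7 CPM in Nc1Bio, against 320.6, 344.3 and 359.5 CPM in BirA. Its log2 fold change was -0.10 ± 0.129 SE (adjusted p = 0.785). It overlaps *Cerkl* on the other strand, and only 73.1% of its reads were unique. *Itgb1* (chr8:128685654-128733200, + strand) had 299.4, 260.2 and 252.7 CPM in Nc1Bio, against 268.1, 265.9 and 292.8 CPM in BirA. Its log2 fold change was -0.03 ± 0.0999 SE (adjusted p = 0.936), and its sign turned with 3 of the 6 libraries left out in turn.

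*Itga6* (chr2:71745616-71858416, + strand) encodes α6, which pairs with β1 or β4 to bind laminin. It had 71.1, 71.7 and 71.9 CPM in Nc1Bio, against 90.2, 81.3 and 76.8 CPM in BirA. The groups did not overlap (9.98% of all genes lower), yet the difference was small, with a log2 fold change of -0.21 ± 0.0935 SE (adjusted p = 0.436).

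The chains of LFA-1, the main integrin of T cells for binding ICAMs, were abundant. *Itgal* (chr7:127296260-127335138, + strand), for αL, had 371.1, 347.5 and 377.9 CPM in Nc1Bio, against 527.6, 585.7 and 471.7 CPM in BirA. The groups did not overlap (9.98% of all genes lower) and were tight, and the log2 fold change was -0.53 ± 0.105 SE. The adjusted p was 0.153 in edgeR and 0.000229 in DESeq2, and it reached 0.550 without Nc1Bio replicate 2. *Itgb2* (chr10:77530252-77565708, + strand), for β2, had 144.6, 124.3 and 195.2 CPM in Nc1Bio, against 289.0, 346.6 and 176.4 CPM in BirA. Nc1Bio replicate 3 lay above BirA replicate 3, so the groups overlapped. At a log2 fold change of -0.81 ± 0.258 SE, edgeR gave an adjusted p of 0.321 and DESeq2 one of 0.0183, and the highest was 0.627 without Nc1Bio replicate 2. β2 is shared by all leukocytes, including myeloid cells. The summed macrophage list, 7 of 7 tested genes of 10 below 0 (50.4% of all genes), was at 284.2, 302.1 and 663.2 CPM in Nc1Bio, against 679.5, 1111 and 138.3 CPM in BirA. The sum peaked in each group in the library where *Itgb2* peaked, but most of it was *Lyz2*, which granulocytes also express. The macrophage gene *C1qa*, chosen after its values were seen, had 9.74, 3.41 and 0.0771 CPM in Nc1Bio, against 29.0, 5.51 and 2.50 CPM in BirA, and did not follow that order. The part of these cells in the *Itgb2* value was not tested.

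Of the 9 chains other than *Itgb3*, 8 had a log2 fold change below 0 and 1 above it, which held for 50.4% and 49.6% of all genes tested. Their median was -0.53, against a median of -0.0026 over all tested genes. edgeR called 0 of the 9. At an unadjusted p under 0.05, 5 were lower (*Itgav*, *Itgae*, *Itgb7*, *Itgal* and *Itgb2*), against 7.66% of all genes, and 0 were higher, against 4.31%. DESeq2 called 3 lower (*Itgae*, *Itgal* and *Itgb2*), against 2.32% of all genes. edgeR without the filter called *Itgae* (background 0.697% lower and 0.0528% higher), and limma-voom called 0. The groups did not overlap for 4 of the 9 (*Itgav*, *Itgae*, *Itgal* and *Itga6*), all lower in Nc1Bio, against 9.98% of all genes lower and 8.45% higher. Without BirA replicate 3, the library with no *Ddx3y* reads, log2 fold changes were -1.87 for *Itgb3*, -2.19 for *Itgae*, -1.17 for *Itgb7*, -1.04 for *Itgb2*, -0.72 for *Itgav* and -0.60 for *Itgal*, and edgeR again called 0 of the 9 (*Itgal* adjusted p = 0.129). The chains were picked with these results known, so the counts describe the 9 and are no evidence about integrins as a class.

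**Figure D2:**
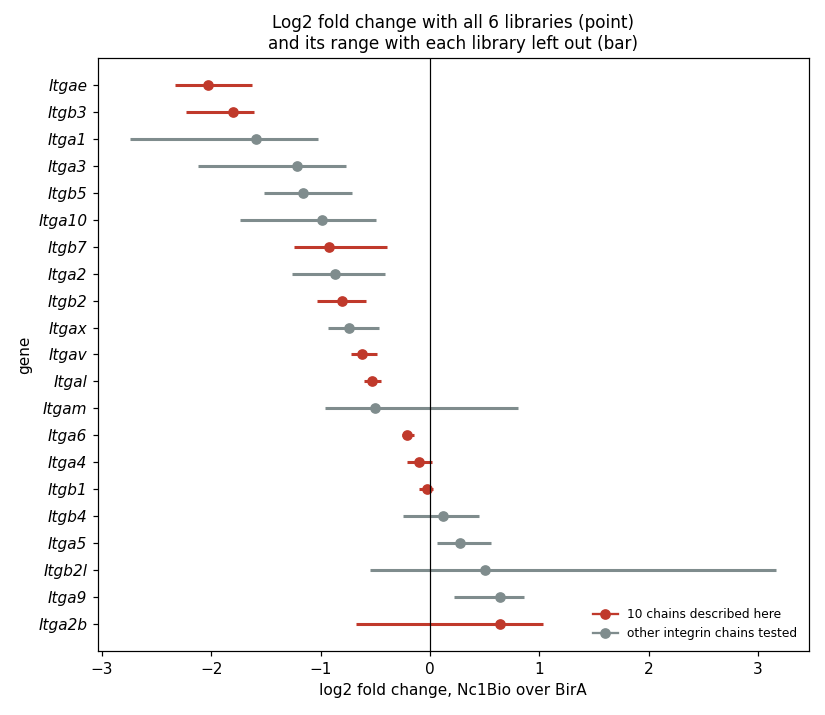
Log2 fold change, Nc1Bio over BirA, of the 21 integrin chain genes that passed the filter (point) with its range when each library was left out (bar), the 10 chains described here in red and the 11 others in grey. *Itgae* at -2.03 and *Itgb3* at -1.80 lie furthest to the left, and the bars of *Itga2b*, *Itga4*, *Itgb1*, *Itgb4*, *Itgb2l* and *Itgam* cross 0.

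Levels of different genes were compared per kb of exon, as unique exon reads per kb on the CPM scale. In Nc1Bio the order was *Itgb1* (65.7 ± 5.96), *Itgal* (55.3 ± 2.33), *Itgb2* (50.5 ± 11.96), *Itga4* (22.4 ± 3.69), *Itgb7* (21.0 ± 8.13), *Itgb3* (7.91 ± 3.62), *Itga6* (7.89 ± 0.0557), *Itgae* (2.45 ± 1.33), *Itgav* (1.101 ± 0.128) and *Itga2b* (0.365 ± 0.382) (mean ± SD, n = 3). In BirA it was *Itgb2* (88.4 ± 28.2), *Itgal* (80.1 ± 8.55), *Itgb1* (66.9 ± 3.43), *Itgb7* (39.9 ± 22.0), *Itgb3* (27.4 ± 2.59), *Itga4* (24.1 ± 1.49), *Itgae* (10.03 ± 3.49), *Itga6* (9.09 ± 0.763), *Itgav* (1.65 ± 0.294) and *Itga2b* (0.235 ± 0.116). *Itgb3* thus stood with *Itga6* in Nc1Bio, where the libraries of these neighbours overlapped, and with *Itgb7* and *Itga4* in BirA, where those overlapped. Other neighbours not separated by their libraries were *Itgal* and *Itgb2*, *Itga4* and *Itgb7*, and *Itgae* and *Itgav* in Nc1Bio, and *Itgb2* and *Itgal*, *Itgb1* and *Itgb7*, and *Itgae* and *Itga6* in BirA. In both groups the β3 transcript was more abundant than those of its α partners together.

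**Figure D3:**
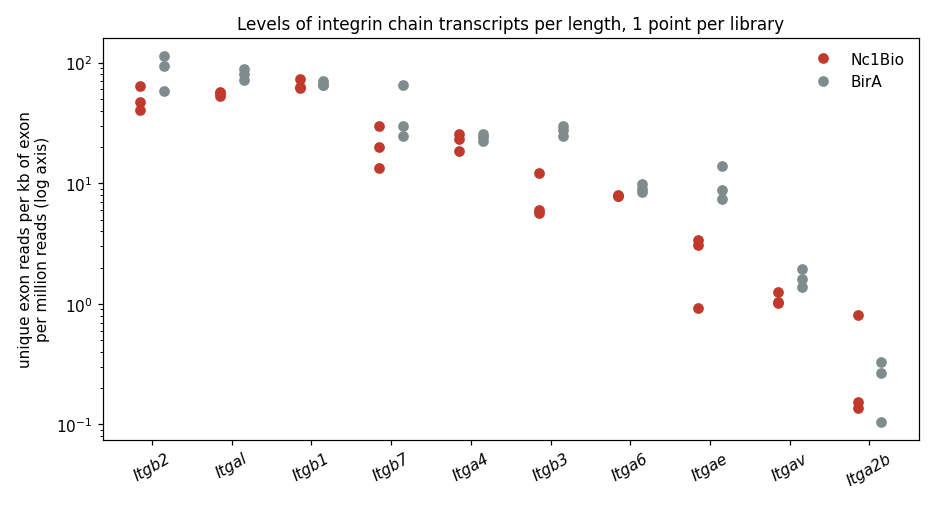
Unique exon reads per kb of exon on the CPM scale (log axis) of the 10 integrin chain genes, 1 point per library, Nc1Bio left and BirA right for each gene, ordered by the mean over all 6 libraries. *Itgb3* lies near 7.91 in Nc1Bio and 27.4 in BirA, between *Itgb2*, *Itgal* and *Itgb1* above and *Itgav* and *Itga2b* below.

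Of the remaining 17 integrin chain genes, *Itga7*, *Itga8*, *Itga11*, *Itgad*, *Itgb6* and *Itgb8* did not pass the filter. Among the 11 that did, 7 had a log2 fold change below 0 (50.4% of all genes) and 4 above it (49.6%), with a median of -0.74. The groups overlapped for all 11. *Itgax*, the CD11c chain of dendritic cells, had 28.7, 14.6 and 31.0 CPM in Nc1Bio, against 46.9, 48.0 and 29.2 CPM in BirA. With a log2 fold change of -0.74 ± 0.305 SE (unadjusted p = 0.0423, adjusted p = 0.403), it was the single one of the 11 at an unadjusted p under 0.05 (7.66% of all genes lower). None of the 11 was called by edgeR, DESeq2 or limma-voom. *Itgb5*, another β partner of αv, had 4.25, 2.20 and 2.54 CPM in Nc1Bio, against 10.3, 6.92 and 2.92 CPM in BirA (log2 fold change -1.16 ± 0.512 SE, adjusted p = 0.431). *Itgb4*, the β partner of α6 in epithelium, had 25.7, 35.5 and 12.2 CPM in Nc1Bio, against 28.7, 19.0 and 19.9 CPM in BirA, which overlap (adjusted p = 0.915).

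The other chains included receptors for collagen and fibronectin. The collagen receptor chains *Itga1*, *Itga2* and *Itga10* had log2 fold changes of -1.59 ± 0.925, -0.86 ± 0.626 and -0.98 ± 0.919 (SE), with adjusted p of 0.533, 0.614 and 0.703. With each library left out, they ran from -2.74 to -1.03, from -1.26 to -0.41 and from -1.73 to -0.49. *Itga3*, a laminin receptor chain, was at -1.22 ± 0.681 SE. The fibronectin receptor chain *Itga5* had 19.7, 21.8 and 9.79 CPM in Nc1Bio, against 10.1, 13.1 and 19.0 CPM in BirA (log2 fold change 0.28 ± 0.345 SE, adjusted p = 0.785), and its groups overlapped. *Itga9* was at 0.64 ± 0.408 SE (adjusted p = 0.568). Values of *Itgam*, the CD11b chain, and *Itgb2l* are uncertain, since only 1.91% and 34.1% of their reads were unique.

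Genes that switch integrins on were counted next. Of 18 listed, 16 were tested. Of these, 13 had a log2 fold change below 0 (50.4% of all genes) and 3 above it, with a median of -0.19. At an unadjusted p under 0.05, 5 were lower (7.66% of all genes) and 0 higher (4.31%), none was called by edgeR or limma-voom, and DESeq2 called *Rasgrp1* lower (2.32% of all genes). *Rasgrp1*, an exchange factor that loads RAS and RAP1 in T cells, had 183.2, 216.0 and 240.8 CPM in Nc1Bio, against 256.3, 393.5 and 412.4 CPM in BirA (log2 fold change -0.73 ± 0.190 SE, adjusted p = 0.246). *Rap1b*, a RAP1 GTPase, was at -0.24 ± 0.0905 SE (adjusted p = 0.378). *Rassf5*, a RAP1 effector needed for LFA-1 adhesion, was at -0.39 ± 0.153 SE (adjusted p = 0.389), and *Cyth1*, which binds the β2 tail, at -0.38 ± 0.144 SE (adjusted p = 0.386).

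Genes that restrain integrins or RAP1 were mostly below 0 as well. Of 11 listed, 10 were tested, 9 below 0 (50.4% of all genes) and 1 above it (49.6%), with a median of -0.29. At an unadjusted p under 0.05, 3 were lower (7.66% of all genes) and 0 higher (4.31%). DESeq2 called 3 lower (2.32% of all genes), and edgeR and limma-voom called none. *Dok2*, an adaptor that damps signalling below receptor kinases, had 48.1, 51.0 and 55.1 CPM in Nc1Bio, against 84.0, 92.1 and 86.1 CPM in BirA. The groups were tight and did not overlap (9.98% of all genes lower), at -0.77 ± 0.0952 SE, and the adjusted p was 0.0831. *Rasa3*, which inactivates RAP1, had 54.7, 52.4 and 63.3 CPM in Nc1Bio, against 98.9, 79.2 and 80.7 CPM in BirA (log2 fold change -0.60 ± 0.125 SE, adjusted p = 0.170). *Mdfic* was at -0.70 ± 0.159 SE (adjusted p = 0.194). *Flna*, filamin A, which competes with talin for β tails, was at -0.38 ± 0.183 SE (adjusted p = 0.455).

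Of 26 genes that act after integrins bind, 21 were tested. Of these, 15 were below 0 (50.4% of all genes) and 6 above it (49.6%), with a median of -0.12. At an unadjusted p under 0.05, 3 were lower (7.66% of all genes) and 0 higher (4.31%). DESeq2 called those 3 (2.32% of all genes), and edgeR and limma-voom called none. *Ptk2b*, the kinase PYK2, had 100.9, 71.6 and 72.9 CPM in Nc1Bio, against 180.9, 147.4 and 130.4 CPM in BirA (log2 fold change -0.90 ± 0.173 SE, adjusted p = 0.140). *Nedd9*, the docking protein CAS-L, had 34.1, 31.0 and 44.3 CPM in Nc1Bio, against 72.4, 71.3 and 59.5 CPM in BirA (log2 fold change -0.89 ± 0.156 SE, adjusted p = 0.109). *Fyn*, a SRC family kinase, was at -0.54 ± 0.116 SE (adjusted p = 0.176). The groups of these 3 genes, the lowest in p of the list, did not overlap, against 9.98% of all genes lower. *Actn1*, α-actinin, which ties integrins to actin, was at 0.27 ± 0.119 SE (adjusted p = 0.434).

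Genes of integrin ligands were counted in the same way. Of 26 listed, 13 were tested, 8 below 0 (50.4% of all genes) and 5 above it (49.6%), with a median of -0.20. At an unadjusted p under 0.05, 0 were lower (7.66% of all genes) and 1 higher (4.31%), and none was called by edgeR, DESeq2 or limma-voom. *Madcam1*, the ligand of α4β7, and the fibrinogen genes *Fga*, *Fgb* and *Fgg* had 0 reads in all libraries. *Cdh1*, E-cadherin, the ligand of αEβ7, had 58.8, 43.4 and 37.3 CPM in Nc1Bio, against 37.5, 29.7 and 30.4 CPM in BirA. Its groups overlapped narrowly, and its log2 fold change of 0.52 ± 0.188 SE (adjusted p = 0.369) had the opposite sign to that of *Itgae*. *Lamb1* and *Lamc1*, laminin chains, were at 1.65 ± 0.769 SE (adjusted p = 0.448) and -0.30 ± 0.164 SE (adjusted p = 0.509). *Fn1*, fibronectin, had 90.5, 26.9 and 9.49 CPM in Nc1Bio, against 254.5, 129.3 and 22.3 CPM in BirA (log2 fold change -1.68 ± 0.938 SE, adjusted p = 0.513), and BirA replicate 3 lay under 2 of the Nc1Bio libraries.

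Markers of other cell types that a DN fraction can hold were summed in each library. In these bulk samples, fewer cells of a type and less RNA per cell cannot be told apart. The γδ T17 list summed to 271.8, 267.9 and 468.9 CPM in Nc1Bio, against 889.4, 1238 and 1214 CPM in BirA. Of its 12 genes 11 were in the tables and 9 were tested, all 9 below 0 (50.4% of all genes). At an unadjusted p under 0.05, 5 were lower (7.66% of all genes). edgeR and limma-voom called none and DESeq2 called 4 lower (2.32% of all genes). Its segment *Tcrg-V6* had 0 reads. The library order within Nc1Bio, with replicate 3 highest, was that of *Itgb3*, but within BirA replicate 1 was the lowest for the sum and the highest for *Itgb3*. The sum is led by *5830411N06Rik* and *Sox13*, and *Cd163l1*, the third of the list, was highest in BirA replicate 1, with 89.8, 21.9 and 34.1 CPM in Nc1Bio, against 225.2, 91.5 and 61.9 CPM in BirA. *Sox13*, a transcription factor of γδ T17 cells, had 51.1, 89.3 and 144.6 CPM in Nc1Bio, against 125.8, 332.0 and 338.0 CPM in BirA.

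Natural killer and innate lymphoid markers summed to 305.6, 379.2 and 474.0 CPM in Nc1Bio, against 648.6, 659.6 and 668.1 CPM in BirA, most of it from *Gzma*, granzyme A. All 7 tested genes of the 9 listed were below 0 (50.4% of all genes). At an unadjusted p under 0.05, 2 were lower (7.66% of all genes), and DESeq2 called 1 lower (2.32%). The NKT-type and innate-like list summed to 14.9 to 56.4 CPM in Nc1Bio and 105.1 to 420.4 CPM in BirA, with all 7 tested genes of 8 below 0, 5 at an unadjusted p under 0.05 and 1 called by DESeq2. BirA replicate 1 had the highest sum there, as it did for *Itgae* and *Itgb7*. B cell markers, with 7 of 7 below 0 and all 7 at an unadjusted p under 0.05 (4 called by DESeq2), summed to 56.4 to 91.6 CPM in Nc1Bio and 130.5 to 381.5 CPM in BirA, with BirA replicate 1 again the highest. Within Nc1Bio, the NKT-type and B cell sums were both lowest in replicate 2, where *Itgb7* was lowest (38.3 CPM) but *Itgae* highest (15.9 CPM). Dendritic cell markers, a list that includes *Itgax*, summed to 24.1 to 46.9 CPM in Nc1Bio and 58.6 to 83.8 CPM in BirA, with both tested genes at an unadjusted p under 0.05 and *Ccr7* called by DESeq2. edgeR and limma-voom called no gene of these 4 lists. The shares over all genes given with the natural killer list apply to the counts of all 4 lists. The part of any of these cells in the integrin values was not tested.

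Granulocyte and mast cell markers, led by *S100a9*, *S100a8* and *Ngp*, summed to 309.1, 2343 and 4506 CPM in Nc1Bio, against 443.3, 7219 and 486.7 CPM in BirA, with single libraries standing apart in both groups. A mast cell gene of that list, *Cpa3*, chosen after its values were seen, had 18.2, 28.3 and 34.9 CPM in Nc1Bio, against 54.1, 100.5 and 107.8 CPM in BirA. DESeq2 (2.32% of all genes lower) and edgeR without the filter (0.697%) called it lower. Other mast cell genes of the list had few reads in each library, *Mcpt4* 0 to 11 and *Fcer1a* 0 to 2. DN thymocyte markers summed to 7790 to 9480 CPM in Nc1Bio and 6849 to 7903 CPM in BirA. All 10 were tested and above 0 (49.6% of all genes). At an unadjusted p under 0.05, 3 were higher (4.31% of all genes), of which DESeq2 called 1 (0.468%). Early thymic progenitor markers summed to 53.4 to 87.2 CPM in Nc1Bio and 83.9 to 150.8 CPM in BirA. Of 8 genes 7 were below 0 (50.4% of all genes), and DESeq2 called 1 lower (2.32%). Endothelial and epithelial markers summed to 23.5 to 45.3 CPM in Nc1Bio and 27.0 to 39.1 CPM in BirA, with *Emcn* at 0 reads.

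**Figure D4:**
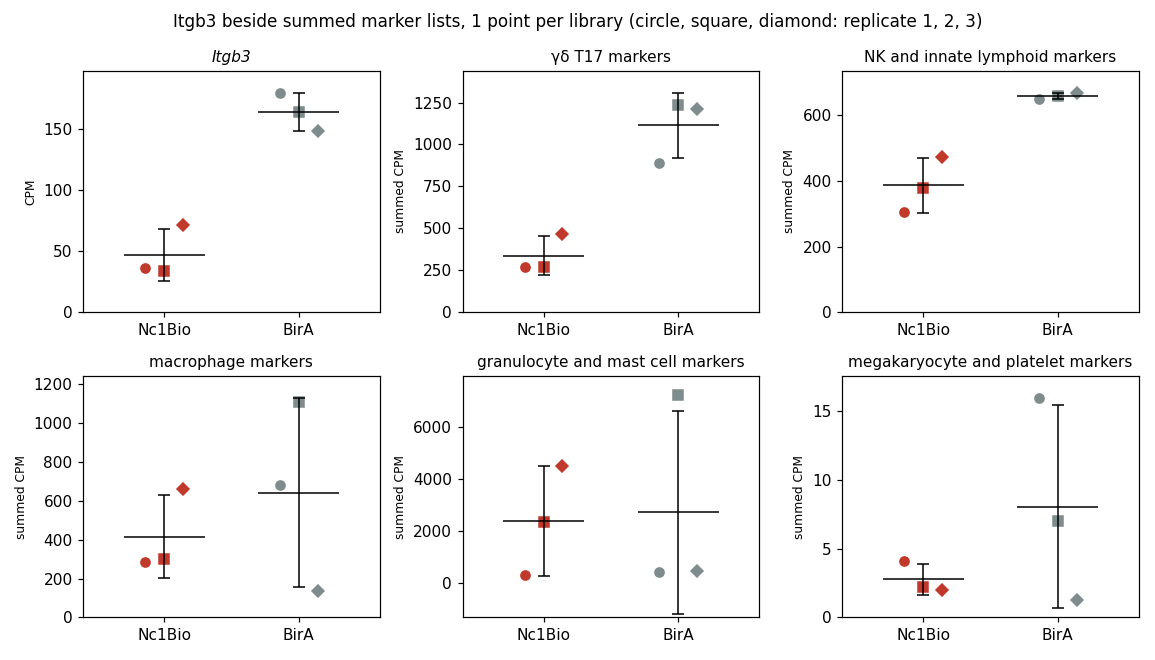
CPM of *Itgb3* and summed CPM of 5 marker lists in each library (circle, square and diamond for replicate 1, 2 and 3), with group means (horizontal lines) and SD (bars), Nc1Bio left and BirA right. *Itgb3*, the γδ T17 list and the natural killer and innate lymphoid list do not overlap between groups (9.98% of single genes lower). The natural killer sum is mostly *Gzma*, and *Klrb1c* and *Prf1* of that list overlap between groups. The macrophage, granulocyte and megakaryocyte lists overlap.

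Over the 6 libraries, among 11117 genes averaging 1 CPM or more, the profiles most like that of *Itgb3* on the log2(CPM + 1) scale were *Acvr2a* (Pearson r = 0.995), *Hsp90b1* (0.995), *Pde7a* (0.995), *Fam160b1* (0.994) and *Unc119* (0.991). Being picked for this r, they are a description only. *Pde7a*, for example, had 65.0, 63.3 and 84.4 CPM in Nc1Bio, against 114.0, 103.8 and 102.4 CPM in BirA. The points share libraries, depth and genotype, and 1 or 2 of the 5 genes were among the top 5 again when a library was left out. Among integrin chains, *Itgav* came first (r = 0.941, rank 97), then *Itgal* (0.924, rank 145) and *Itgb2* (0.851, rank 399). *Itgae* had r = 0.669, with r = -0.793 for the deviations from the group means.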

How the data were processed

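DN thymocytes were depleted of CD4+ and CD8+ cells on magnetic beads, and poly(A) libraries were sequenced as single reads of 59 bases. The methods of the study name cutadapt, STAR, GRCm38, featureCounts and DESeq2. The program behind the deposited layout and its use of strand are, in the sources used here, not given. The tables deposited by the authors hold, per gene, whole-number counts of reads in the gene, its exons and its introns (unique and total), and the exon length in bases. Counts are reads, not molecules.

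The 10 genes and all gene lists were chosen with earlier results of these data known. Unique gene reads of 12224 genes passing filterByExpr were scaled by TMM and tested across the 6 libraries by edgeR 4.0.16 (quasi-likelihood, genotype only, R 4.3.3). Benjamini-Hochberg adjustment was used, with calls at 0.05. In simulated counts of 11916 genes, edgeR called 47% of 2-fold and 72% of 4-fold changes, with 19 false calls. DESeq2 called 60% and 80% with 46 false calls, and limma-voom 44% and 68% with 16. SE is the log2 fold change over the square root of F. The pathway genes named are the 4 of lowest p in each list, and the marker genes the 3 of highest mean or those at or near 0. The 5 likest genes are those of highest r, predicted gene models left out. Alternatives were DESeq2 1.42.0 on the same genes, limma-voom (limma 3.58.1), RLE scaling, other filters and count columns, the threshold named in the methods (adjusted p under 0.01 and absolute log2 fold change over 0.5), a replicate block and each library left out. Over 15 pairs of libraries the lowest ratio of chi-square to degrees of freedom was 24.3, so none was a duplicate. RefSeq promoters (GRCm38.p6) were matched by symbol, 5 of 10. One marker gene is not reported by name here.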

Additional observations from a re-analysis of the deposited data

How the results depend on the processing

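Over all genes tested, edgeR called 1 gene higher and 0 lower. With no filter on low counts it called 11 higher and 145 lower, and DESeq2 called 55 higher and 273 lower. At the threshold named in the methods, edgeR called 0 higher and DESeq2 13 higher and 155 lower. Leaving out 1 library gave 0 to 1 higher and 0 to 1 lower, and leaving out BirA replicate 1 and Nc1Bio replicate 3 together gave 2 lower. Groups shared replicate numbers, but libraries of the same number did not deviate together in all pairs (r of 0.339, 0.114 and -0.16). With 3 libraries per group, these values cannot tell whether libraries of the same number were prepared together. With the replicate block, edgeR called 1 gene lower, and none of the 9 chains other than *Itgb3*.

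The log2 fold change of *Itgb3* was -1.88 by limma-voom, -1.89 with the block (-1.80 without it) and -2.17 without BirA replicate 1 and Nc1Bio replicate 3. Across integrin chains and alternatives, 298 tested values kept sign and side of the threshold, and 17 with no adjusted p kept their sign (16 of *Itgb3* and 1 of *Itga10* in DESeq2). 4 passed only under an alternative: *Itgae*, *Itgal* and *Itgb2* in DESeq2, and *Itgae* with no filter. 15 changed sign, none of them called: *Itgb1* to 0.0038 without Nc1Bio replicate 2, 0.024 without Nc1Bio replicate 3, 0.023 when BirA replicate 3 was dropped and 0.00036 when the pair of libraries named above was, *Itga2b* to -0.68 without Nc1Bio replicate 3 and -0.35 without that pair, *Itga4* to 0.020 without Nc1Bio replicate 1, *Itgb4* to -0.25 without Nc1Bio replicate 2, *Itga9* to -0.043 without the pair, *Itgb2l* to -0.55 when Nc1Bio replicate 3 was dropped, -0.046 without BirA replicate 3 and -1.01 when both of the pair were, and *Itgam* to 0.034 by limma-voom, 0.011 with the block and 0.80 without BirA replicate 2. With each library left out in turn, ranges were -0.099 to 0.024 for *Itgb1*, -0.68 to 1.04 for *Itga2b*, -0.21 to 0.020 for *Itga4*, -0.25 to 0.45 for *Itgb4*, -0.55 to 3.17 for *Itgb2l* and -0.96 to 0.80 for *Itgam*. The cause was not tested. Of the 5 genes most like *Itgb3*, 1 to 2 were in the top 5 again with a library left out, and 3 with total gene reads. In the order of levels per kb, 8 to 10 of the 10 genes kept their rank. At under 100 reads, as for *Itga2b*, depth limits what can be seen.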
